A study of Mus musculus with 4 samples.

Results

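The major histocompatibility region of the mouse, the H2 complex with its neighbours, was taken as the stretch of chromosome 17 from 33.9 to 36.5 Mb in the mm9 genome build. Every deposited ChIP-seq peak of BAP1, HCF1 or OGT whose centre fell in that stretch was included. This gave 125 of 17662 BAP1 peaks, 277 of 31421 HCF1 peaks and 130 of 10337 OGT peaks, or 532 of 59420 in all. The choice used position only, and no score or overlap entered it. The 2530 other peaks of chromosome 17 served as the comparison.

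ChIP-seq maps where a protein sits on DNA by sequencing the fragments that an antibody pulls down. The cells were bone marrow derived macrophages, primary cells of strain C57BL/6 grown in L929 conditioned medium without further treatment. BAP1 was pulled down with anti-FLAG from cells of the genotype BAP1-3X Flag Tagged KI, and HCF1 and OGT with anti-HCF1 and anti-OGT1 from BAP1 WT cells. A library of input DNA from BAP1 WT cells had no antibody, and no peak list of it was used here. The genotype of BAP1 follows the labels, whereas the name of its list refers to wild-type macrophages. Were the cells untagged, an anti-FLAG pull-down would not report on BAP1. The labels do not say how many animals gave the marrow or whether they were pooled. With 1 library per protein no value below has a replicate error and no test between samples could be made. Intervals are 95% intervals for counting error, which treat peaks as independent although neighbouring peaks are not, and the read depth of each library is unknown.

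The H2 complex is the mouse counterpart of the human HLA region. Class I genes such as H2-K1 and H2-D1 encode molecules that show peptides from inside the cell to cytotoxic T cells. Class II genes such as H2-Ab1, H2-Aa and H2-Eb1 encode the molecules with which macrophages and other antigen-presenting cells show engulfed material to helper T cells. Between and beside them lie Tap1 and Tap2, which pump peptides into the endoplasmic reticulum, the immunoproteasome subunits Psmb8 and Psmb9, the complement genes C2, Cfb and C4b, and the cytokine genes Tnf, Lta and Ltb. Many broadly expressed genes share the stretch, among them Brd2, which encodes a reader of acetylated histones, Ring1, which encodes a Polycomb ubiquitin ligase subunit, and Daxx, which encodes a histone chaperone. BAP1 is a deubiquitinase that removes ubiquitin from histone H2A, HCF1 is a chromatin cofactor that binds BAP1, and OGT adds O-GlcNAc to nuclear proteins, HCF1 included.

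In the RefSeq table of GRCm38, used for names and order only, the listed genes run Daxx, Tapbp, H2-K1, Ring1, Rxrb, H2-Oa, Brd2, H2-DMa, Psmb9, Tap1, Psmb8, Tap2, H2-Ob, H2-Ab1, H2-Aa, H2-Eb1, Notch4, C4b, Cfb, C2, Ehmt2, Hspa1b, Bag6, Aif1, Ltb, Tnf, Lta, Ddx39b, H2-D1, H2-Q4, Gtf2h4, Ddr1, Ier3, Flot1, Tubb5, Mdc1, H2-T24, H2-T23 and H2-T3. Of 66 symbols listed for the complex and its neighbours, 62 were matched in that table. Its coordinates belong to another build than the peaks. No peak was therefore assigned to a gene, no sequence was read, and sites below are named by their mm9 position.

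All 3 proteins had more peaks per megabase here than in any other complete window of a same-size grid on chromosome 17, set by the region's edges. BAP1 had 48.1 peaks per Mb (40.02 to 57.3), against 8.68 in the rest of the chromosome between its first and last peak, a 5.54-fold difference (4.55 to 6.70). HCF1 had 106.5 per Mb (94.4 to 119.9) against 14.5, or 7.36-fold (6.44 to 8.38). OGT had 50 per Mb (41.8 to 59.4) against 5.06, or 9.87-fold (8.06 to 12.0). The interval of the OGT fold did not overlap that of BAP1. The region makes up 2.82% of the span of chromosome 17 that holds peaks, yet it held 13.8% of that chromosome's BAP1 peaks, 17.6% of its HCF1 peaks and 22.3% of its OGT peaks. Large parts of the chromosome had no peak. When only 100 kb bins with a peak of any list were counted, the region was 2.40-fold (BAP1), 3.18-fold (HCF1) and 4.27-fold (OGT) denser.

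Set against 33 other complete windows of 2.6 Mb on a fixed grid of chromosome 17, the region stood first in each list. The highest other window held 79 BAP1, 133 HCF1 or 53 OGT peaks, and the median window 14, 31 and 7. Over 896 other autosomal windows on the same grid, none held more peaks of any protein, and 1 held as many BAP1 peaks. The highest counts there were 125 for BAP1, 203 for HCF1 and 107 for OGT. Whether this density exceeds that of other stretches equally rich in genes was not tested.

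**Figure D1:**
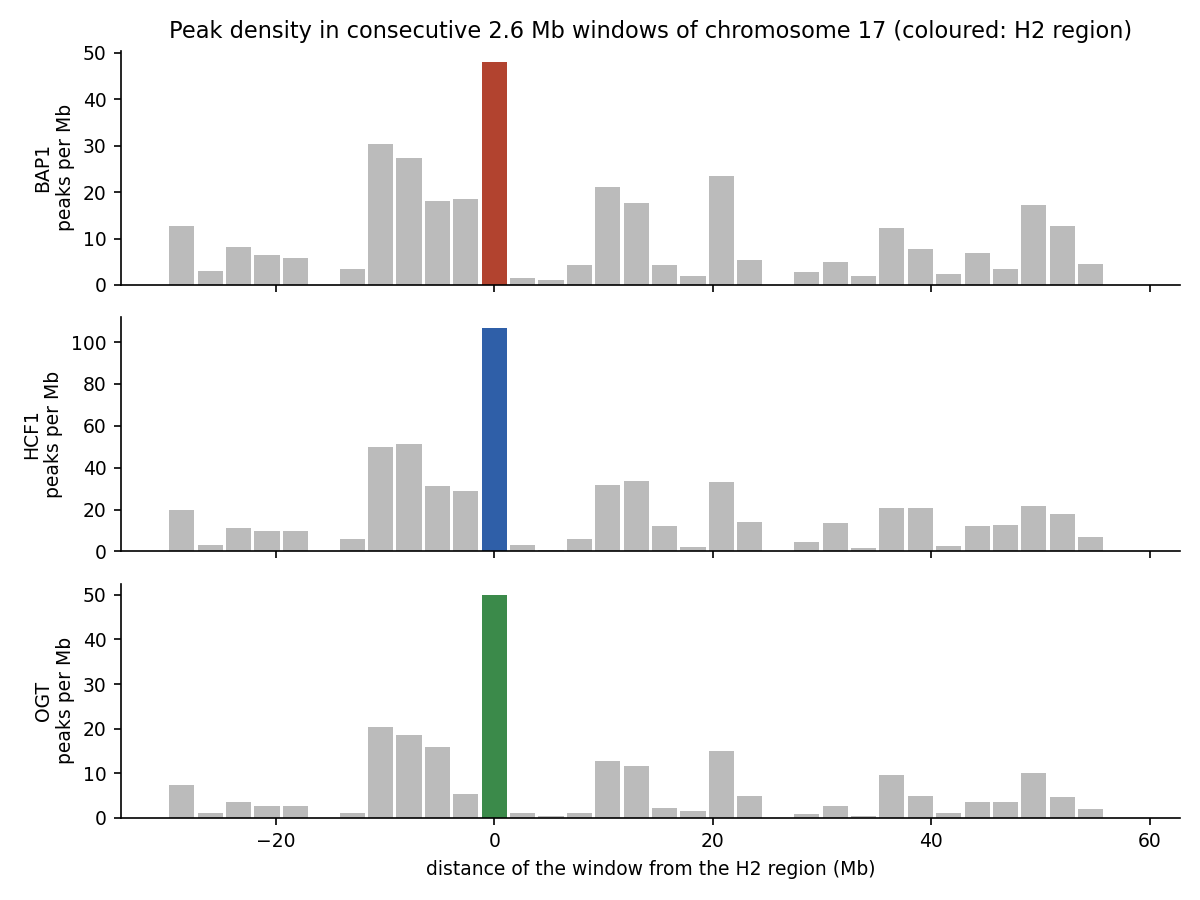
Peaks per Mb (vertical axes) of BAP1, HCF1 and OGT in consecutive 2.6 Mb windows of chromosome 17, by the distance of the window from the H2 region in Mb. The coloured bar, the H2 region, is the tallest in each panel, at 48.1, 106.5 and 50 peaks per Mb.

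The peaks were also packed closer together. HCF1 peaks in the region lay a median of 1.58 kb apart, compared with 9.38 kb in the rest of chromosome 17, and 45.3% of the gaps between them (39.3 to 51.4%) were 1 kb or shorter, compared with 21.3% (19.1 to 23.7%). For OGT 20.9% of gaps (14.3 to 29.0%) were this short, against 11.2% (8.48 to 14.5%), and for BAP1 10.5% (5.70 to 17.3%) against 7.71% (5.94 to 9.82%). Only the HCF1 intervals did not overlap. After peaks of a list were joined over gaps of up to 1 kb, HCF1 had 58.5 stretches per Mb in the region and 11.4 in the rest, a 5.13-fold difference. BAP1 peaks covered 8.72% of the region's bases and 1.27% of the rest, HCF1 peaks 12.6% and 1.38%, and OGT peaks 7.001% and 0.547%.

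Along the region the peaks fell into clusters with near-empty stretches between them. Of its 26 bins of 100 kb, the 5 with most merged regions held 40% of the 260 merged regions, where a merged region joins peaks of different lists that overlap by at least 1 bp. The fullest bin, chr17:35300001-35400000, held 15 BAP1, 30 HCF1 and 16 OGT peaks in 26 merged regions. It was the fullest bin for each protein taken alone. The run of 3 bins with most merged regions, chr17:35100001-35400000, held 52 of them, 18 with all 3 proteins. A second cluster near the start, chr17:34000001-34300000, held 49, of which 15 had all 3 proteins. The longest stretches without any peak were chr17:35692447-35802941, chr17:35412388-35515612 and chr17:34595168-34692208, at 110.5, 103.2 and 97.0 kb.

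**Figure D2:**
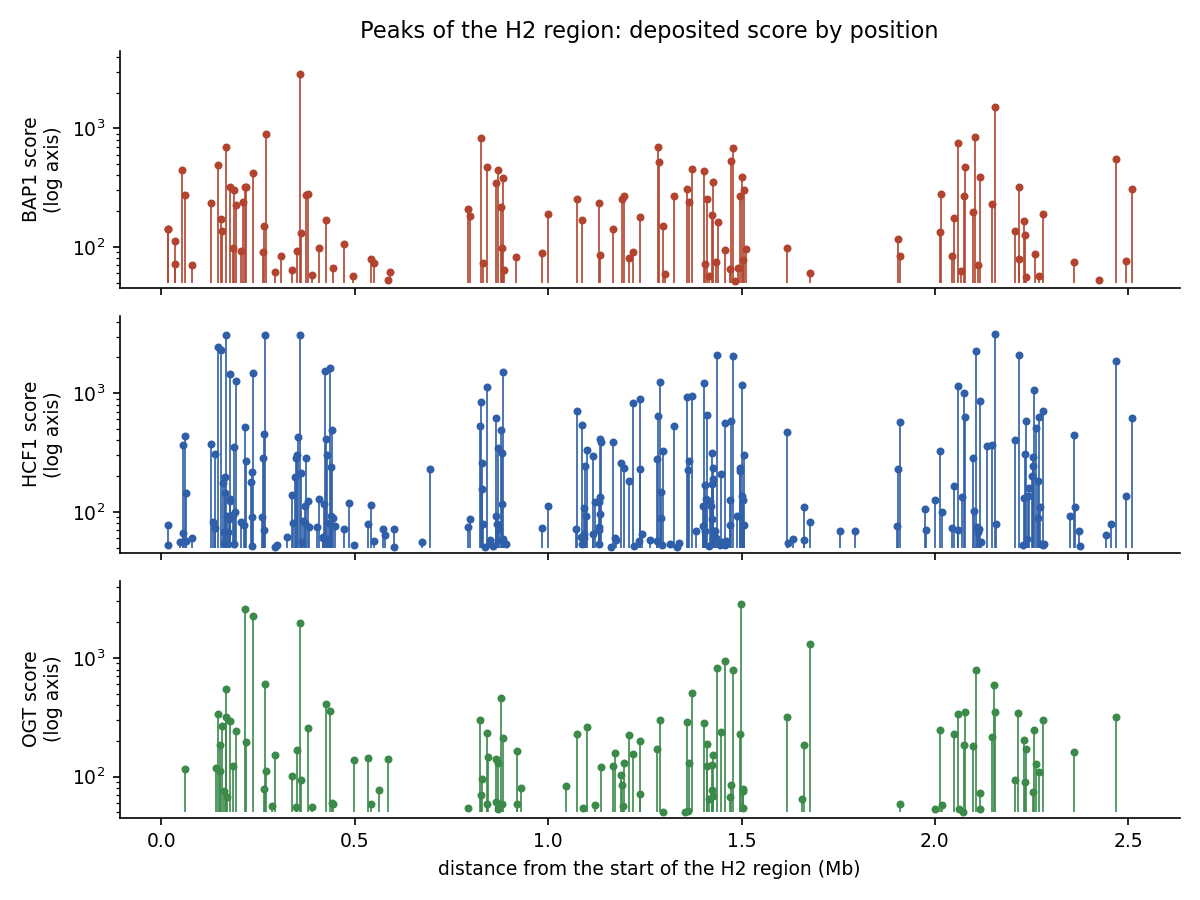
Deposited score of each peak (vertical axes, log scale) against its distance from the start of the H2 region in Mb, for BAP1, HCF1 and OGT. Points are peaks. Peaks gather in clusters separated by stretches with few peaks, and the highest BAP1 and HCF1 scores, 2876.56 and 3159.99, lie toward the start and the end.

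The last BAP1, HCF1 and OGT peaks before the region were centred 2.81, 2.59 and 2.62 kb from its start, with scores of 439.23, 267.97 and 156.62. The first peaks inside were centred 16.3, 16.4 and 61.6 kb from it, with scores of 141.11, 52.6 and 116.82. At the far end the last peaks inside scored 308.45, 621.63 and 315.41, and the next peaks of all 3 lists, 474 kb beyond the edge, scored 183.77, 371 and 188.31. With the region narrowed to 34 to 36 Mb, the densities were 49.5, 111.5 and 55.5 per Mb.

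Peaks of OGT and BAP1 in the region scored higher within their lists than those elsewhere on the chromosome. The definition of the deposited score is not stated, and it was read only as a percentile within its own list. The median OGT peak of the region was at the 74.4th percentile (66.7 to 80.4), against 50.4 (46.0 to 53.6) in the rest of chromosome 17. The median BAP1 peak was at 67.2 (55.4 to 76.1), against 50.4 (46.2 to 53.7). HCF1 peaks were at 52.8 (44.8 to 58.6), against 47.2 (44.1 to 50.3), and these intervals overlapped.

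The upper end of each list was well filled. Of the OGT peaks in the region 31 of 130, 23.8% (16.8 to 32.1%), were in the top 10% of the list by score, where 10% of the whole list is by construction and 7.71% (5.43 to 10.6%) of the rest of chromosome 17 was. For BAP1 the share was 25 of 125, 20% (13.4 to 28.1%), against 11.1% (8.94 to 13.5%) in the rest and 10% of the list. These BAP1 intervals overlapped slightly. For HCF1 it was 43 of 277, 15.5% (11.5 to 20.3%), against 9.63% (8.08 to 11.4%) in the rest and 10% of the list. HCF1 thus had more of its highest peaks here although its median did not stand apart. In the top 1% the region had 11 HCF1 peaks, 3.97% (1.999 to 6.99%), against 0.770% (0.370 to 1.41%) in the rest. The top 1% shares of BAP1, 3.20% (0.879 to 7.99%) against 1.16% (0.530 to 2.18%), and of OGT, 5.38% (2.19 to 10.8%) against 1.54% (0.622 to 3.15%), had overlapping intervals.

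**Figure D3:**
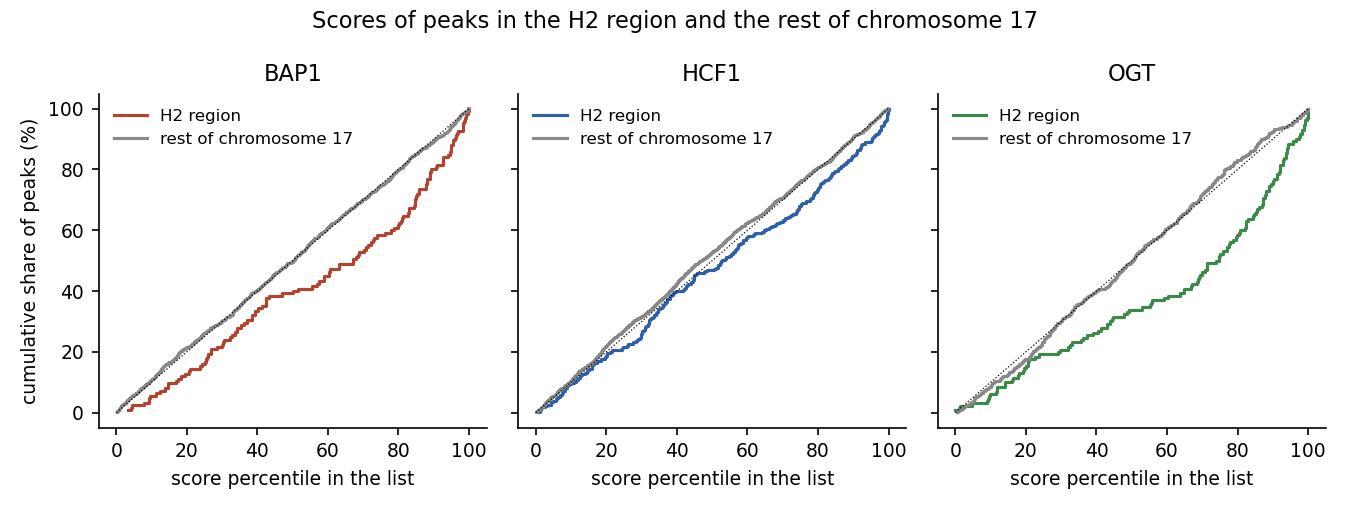
Cumulative share of peaks (vertical axis, %) by score percentile within the list (horizontal axis) for BAP1, HCF1 and OGT, coloured for the H2 region and grey for the rest of chromosome 17; the dotted line marks an even spread. The OGT and BAP1 curves of the region run below the grey ones, with medians at the 74.4th and 67.2nd percentile.

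Peaks of BAP1 and OGT were wider as well, and the interval of the HCF1 median included the value of the rest. Median widths were 1426 bp (1285 to 1600) for BAP1 against 1233.5 bp in the rest, 777 bp (683 to 872) for HCF1 against 701 bp, and 1105 bp (1025 to 1260) for OGT against 874.5 bp. In each list the widest peaks by median were those in the highest quintile of score, where the medians in the region and the rest were 2037 and 1864 bp for BAP1, 2066 and 1753 bp for HCF1, and 1720 and 1400 bp for OGT. In the middle quintile BAP1 and OGT peaks of the region were narrower than the rest, at 1033.5 against 1180 bp and 781 against 821 bp.

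Sites with all 3 proteins made up a larger share of the region than of the rest of the chromosome. Of its 260 merged regions 75 held BAP1, HCF1 and OGT, 28.8% (23.4 to 34.8%), compared with 267 of 1467 in the rest, 18.2% (16.3 to 20.3%), and 16.5% over the whole genome. The difference was 10.6 percentage points (Newcombe interval 5.08 to 16.7), and it was gone when centres had to lie within 250 bp, at 7.30% against 7.73%. Of 538 other autosomal windows of 2.6 Mb with at least 20 merged regions, 16 had a higher share than the region, up to 39.5%. Pairs of BAP1 and HCF1 without OGT were less frequent here, with 26 merged regions or 10% (6.64 to 14.3%) against 19.6% (17.6 to 21.7%), a difference of -9.56 points (-13.3 to -4.89). BAP1 alone was found in 13, 5% (2.69 to 8.40%) against 13.2% (11.5 to 15.0%), a difference of -8.16 points (-10.9 to -4.42). The remaining combinations had difference intervals that included 0. HCF1 alone made up 116, or 44.6% (38.5 to 50.9%) against 38.8%, HCF1 with OGT 17, OGT alone 9, and BAP1 with OGT 4.

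Expressed per megabase, each combination was denser here than in the rest, but by different amounts. Sites with all 3 proteins were 9.69-fold denser, BAP1 with OGT 9.20-fold, HCF1 with OGT 7.71-fold, HCF1 alone 7.03-fold and OGT alone 5.17-fold. BAP1 with HCF1 was 3.12-fold denser and BAP1 alone 2.32-fold. The classes that lack OGT but hold BAP1 thus had the lowest values of the 7. No intervals were computed for these folds. Those of BAP1 with OGT and of OGT alone rest on only 4 and 9 merged regions here.

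**Figure D4:**
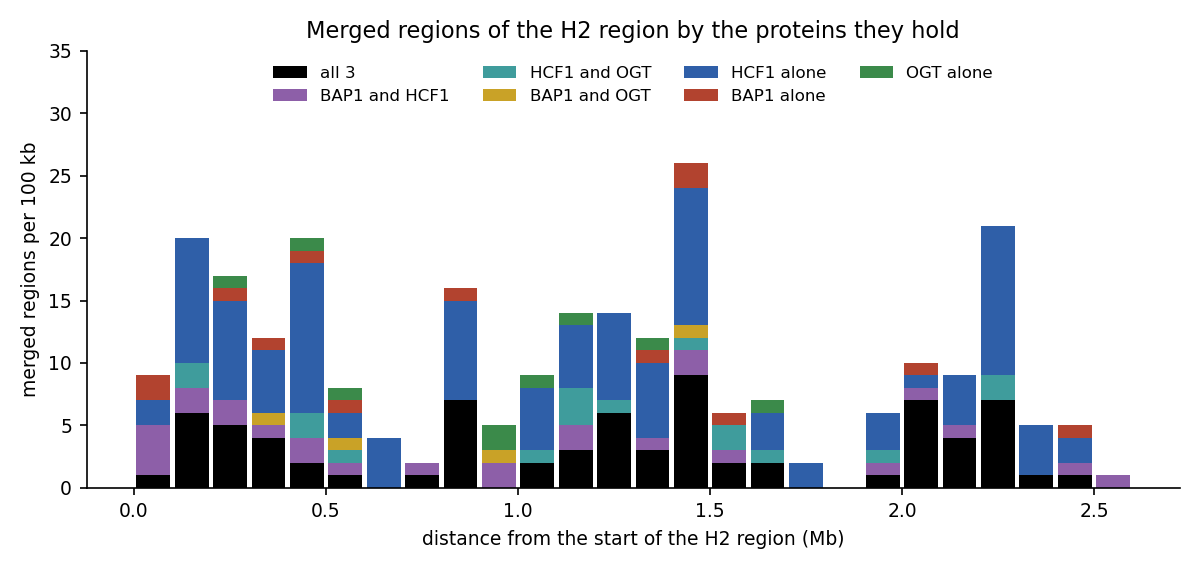
Merged regions in each 100 kb bin of the H2 region (vertical axis, count) by distance from its start in Mb, stacked by the proteins they hold. Sites with all 3 proteins (black) and HCF1 alone (blue) make up most of the fuller bins, and the fullest bin holds 26 merged regions, 9 of them with all 3.

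Of the pairwise overlaps of at least 1 bp, that of BAP1 peaks with OGT differed most from the rest of the chromosome. OGT overlapped 83 of the 125 BAP1 peaks, 66.4% (57.4 to 74.6%), against 36.8% (33.4 to 40.3%) in the rest and 35.2% over the genome. The difference was 29.6 points (20.3 to 38.0). Against BAP1 peaks of the rest weighted to the same score deciles, at 43.5%, it was 22.9 points. The region had 130 OGT peaks to 125 BAP1 peaks, against 454 to 778 in the rest, and this share can rise with the number of OGT peaks. How much of the difference goes with that number was not tested. The reverse share, of OGT peaks on BAP1, differed by 7.87 points (-1.13 to 15.7), or 1.89 points after such weighting. Among 294 other autosomal windows of 2.6 Mb with at least 20 BAP1 peaks, the highest share was 60.2%, which lies within the region's interval. This share was singled out after its value was seen.

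HCF1 peaks showed the same contrast, with OGT but not with BAP1. OGT overlapped 116 of 277 HCF1 peaks, 41.9% (36.001 to 47.9%), against 29.0% (26.5 to 31.5%) in the rest and 26.6% over the genome, a difference of 12.9 points (6.71 to 19.3). After weighting to like scores it was 8.39 points. Of 510 other autosomal windows with at least 20 HCF1 peaks, 15 had a higher share, up to 54.2%. BAP1 overlapped 138 of them, 49.8% (43.8 to 55.9%), against 49.5% (46.8 to 52.3%) in the rest and 47.6% over the genome. That difference was 0.28 points, with an interval from -6.16 to 6.73, and -3.68 points after weighting. A higher share was found in 220 of the 510 windows.

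Seen from the other side, HCF1 overlapped 108 of 125 BAP1 peaks, 86.4% (79.1 to 91.9%), against 73.3% (70.0 to 76.3%) in the rest and 74.7% over the genome. The difference of 13.1 points (5.43 to 19.0) was 7.08 points after weighting to like scores, and 17 of 294 other windows had a higher share. For OGT peaks as deposited the intervals of both differences included 0. HCF1 overlapped 116 of 130 OGT peaks, 89.2% (82.6 to 94.0%), against 82.4% in the rest and 82.1% over the genome, a difference of 6.85 points (-0.40 to 12.5). BAP1 overlapped 99, 76.2% (67.9 to 83.2%), against 68.3% and 66.3%, a difference of 7.87 points (-1.13 to 15.7). After weighting to like scores the differences were 3.56 points on HCF1 and 1.89 points on BAP1. Of 152 other windows with at least 20 OGT peaks, 36 and 45 had higher shares than the region. With lists cut to equal length OGT met HCF1 at 73.1% against 58.6%, a difference of 14.5 points (5.16 to 22.8).

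The rule for overlap decided several of these differences. When centres had to lie within 250 bp, 44.0% of BAP1 peaks in the region had an HCF1 peak, fewer than the 50.9% in the rest. With peaks trimmed to 200 bp the shares were 39.2% and 44.7%. Both differences had intervals that included 0. Sites with all 3 proteins made up 5.08% of merged regions with trimmed peaks, against 5.70% in the rest. The share of HCF1 peaks on BAP1 by centres was 19.9%, against 30.5%. The difference of -10.7 points had an interval from -15.6 to -5.001, and it was -9.12 points (-13.9 to -3.67) with trimmed peaks and -6.85 points (-12.4 to -0.76) by reciprocal overlap of 50%. The OGT peaks also turned below the rest by centres, by -2.63 points (-12.1 to 7.07) on HCF1 and -7.78 points (-16.4 to 1.68) on BAP1. By centres OGT met 32.0% of BAP1 peaks against 22.5%, a difference of 9.51 points (1.37 to 18.6). It met 21.3% of HCF1 peaks against 16.9%, a difference of 4.43 points (-0.47 to 9.97). With trimmed peaks the BAP1 difference was 6.32 points (-1.12 to 15.0).

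**Figure D5:**
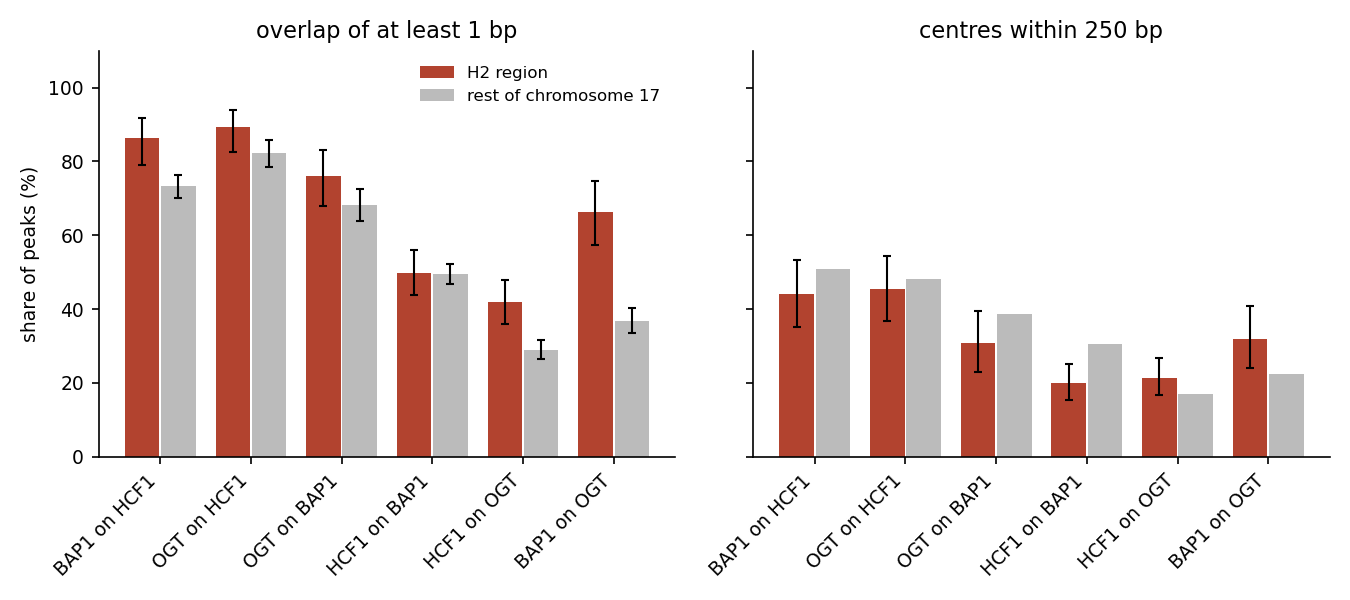
Share of peaks of the first-named protein that meet a peak of the second (vertical axis, %), in the H2 region (red) and the rest of chromosome 17 (grey), by overlap of at least 1 bp (left) and by centres within 250 bp (right). Bars on the columns are exact 95% intervals, drawn on the right for the H2 region only. BAP1 on OGT shows the widest gap on the left, 66.4% against 36.8%, and stands at 32.0% against 22.5% on the right. The widest gap on the right is that of HCF1 on BAP1, where the region is lower, at 19.9% against 30.5%.

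The median distance between centres of overlapping peaks was larger in the region for each pair of proteins. Centres of BAP1 and HCF1 peaks lay a median of 383.5 bp (281 to 470) apart, against 184 bp (163 to 207.5) in the rest of the chromosome. For OGT and HCF1 it was 338 bp (213 to 408.5) against 215.75 bp (181.5 to 264.5), and for OGT and BAP1 333 bp (259 to 395.5) against 210.5 bp (179.5 to 245.5). Peak width and the number of peaks in a cluster can bear on this distance, and their part in the difference was not tested. Among pairs where each peak overlapped only the other, the medians for BAP1 and HCF1 were 202.5 bp (150 to 281) and 129 bp (108.5 to 148.5), for OGT and HCF1 168.5 bp (115 to 240.5) and 158.5 bp (137 to 182.5), and for OGT and BAP1 234.5 bp (163 to 310) and 161.5 bp (125.5 to 205). Only the first of these had intervals apart. As a percentage of the mean width of the pair, the offset of BAP1 and HCF1 was 21.5% (17.7 to 26.5%) in the region and 13.1% (11.8 to 14.7%) in the rest. The intervals overlapped for OGT and HCF1, at 23.7% (17.7 to 28.1%) and 19.9% (16.5 to 21.4%), and for OGT and BAP1, at 19.7% (16.7 to 24.8%) and 14.4% (12.2 to 17.1%).

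OGT and BAP1 occurred together on HCF1 peaks to a greater extent here than in the rest. OGT was present on 93 of 138 HCF1 peaks with BAP1, 67.4% (58.9 to 75.1%), and on 23 of 139 without BAP1, 16.5% (10.8 to 23.8%). In the rest of the chromosome these shares were 45.1% (41.2 to 49.0%) and 13.1% (10.6 to 16.0%). The contrast was thus 50.8 points in the region and 32.0 points in the rest, and these contrasts differed by 18.9 points (normal-approximation interval 7.88 to 29.9). It was 25.6 and 15.0 points by centres, 22.3 and 12.3 points with trimmed peaks, and 22.03 and 15.5 points with lists of equal length. Under these 3 rules the difference was not resolved, at 10.6 points (-4.11 to 25.4), 9.99 points (-5.09 to 25.1) and 6.58 points (-14.1 to 27.3). By HCF1 score among peaks with BAP1, the region lay above the rest in 4 of 5 quintiles. Only in the fourth did the intervals not overlap. Among HCF1 peaks with BAP1 in the fourth quintile, 21 of 25 had OGT, 84.0% (63.9 to 95.5%), against 40.5% (33.0 to 48.3%). In the highest quintile it was 57 of 66, 86.4% (75.7 to 93.6%), against 70.6% (64.4 to 76.4%). In the middle quintile it was 9 of 17, 52.9% (27.8 to 77.0%), against 26.8% (19.2 to 35.6%). In the lowest it was 3 of 8, 37.5% (8.52 to 75.5%), against 13.0% (4.94 to 26.3%), and in the second 3 of 22, 13.6% (2.91 to 34.9%), against 23.9% (14.6 to 35.5%). Without BAP1 the shares, from lowest to highest quintile, were 6.82%, 8.11%, 18.8%, 31.6% and 71.4% in the region, the last from 7 peaks. In the rest they were 3.85%, 11.7%, 16.8%, 29.0% and 61.1%. BAP1 was on 15.4% of HCF1 peaks in the lowest quintile and 90.4% in the highest, and in the rest on 16.4% and 92.9%. The contrasts of 50.8 and 32.0 points thus compare HCF1 peaks of unlike score.

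The 3-protein sites themselves were larger than those elsewhere on the chromosome. Their median width was 2579 bp, with quartiles of 1836 and 3806 bp, compared with 2027 bp and quartiles of 1508.5 and 2793.5 bp. Sites over 5000 bp numbered 10 of 75, 13.3% (6.58 to 23.2%), against 4.87% (2.62 to 8.18%). A single peak of each protein made up 43 of them, 57.3% (45.4 to 68.7%), against 72.3% (66.5 to 77.6%). With each protein scored by its highest peak in the site, the median percentile was 86.0 for OGT against 62.3 in the rest. It was 80.9 for BAP1 against 74.4, and 91.0 for HCF1 against 85.7. Such a maximum can rise with the number of peaks in a site. Over single peaks that overlapped both other proteins, the medians were 82.3 against 60.6, 79.9 against 74.0 and 86.6 against 85.0, in the same order.

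The 5741 sites with all 3 proteins in the genome were ranked by the lowest of their within-list percentiles. Each protein's percentile was that of its highest peak in the site. Of the first 100 sites 6 lay in the region, and of the first 500 it held 21, or 6.00% and 4.20%. The region held 75 of all such sites, 1.31%. The rest of chromosome 17, with 267 sites, also had 6 in the first 100 and had 18 in the first 500.

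The site that ranked second in the genome was the widest of the region. It ran over chr17:34251041-34263139, 12099 bp, and scored 2876.56 for BAP1, 3100 for HCF1 and 1975.33 for OGT. It was built of 2 BAP1, 4 HCF1 and 2 OGT peaks. A BAP1 peak of 8051 bp, chr17:34253083-34261133, and an HCF1 peak of 8195 bp, chr17:34253129-34261323, covered nearly the same bases in it. This BAP1 peak had the highest BAP1 score of the region.

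The sites next in rank scored lower for OGT than chr17:34251041-34263139, at the 97.8th to 98.9th percentile of that list. Their HCF1 scores were at the 99.5th to 99.99th percentile and their BAP1 scores at the 98.2nd to 99.8th. At chr17:36001265-36008779 the scores were 851.65 for BAP1, 2275.06 for HCF1 and 794 for OGT. At chr17:34166387-34171315 they were 901.84, 3100 and 609.64, in the same order. The site chr17:36052209-36059060 scored 1497.15 for BAP1, 3159.99 for HCF1 and 594.77 for OGT. It held the highest HCF1 score and second-highest BAP1 score of the region. At chr17:34064950-34070224 there were 2 HCF1 and 3 OGT peaks on 1 BAP1 peak, with top scores of 3100, 553.33 and 701.92. The site chr17:35377027-35381075 had a peak of each protein, scoring 675.53 for BAP1, 2050.75 for HCF1 and 793.19 for OGT. These 6 sites were the region's members of the genome's first 100. HCF1 scores of exactly 3100 are shared by many peaks of that list and cannot be ranked among themselves.

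The 4 remaining sites chosen by the ranking were chr17:35271348-35273536, chr17:34135559-34138453, chr17:34044565-34049885 and chr17:35957475-35962064, ranked from 127 to 181 in the genome. Their lowest percentiles ran from 95.03 down to 93.7. At chr17:34135559-34138453 OGT had the highest rank of the 3 proteins, with a score of 2241.89 at the 99.9th percentile, against the 98.7th for HCF1 and the 94.1st for BAP1.

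The 3 highest OGT peaks did not coincide with the 3 highest of BAP1 or HCF1. They were chr17:35398763-35400826 at 2825.79, chr17:34115299-34117515 at 2597.26 and chr17:34136573-34138453 at 2241.89. Each of them, however, overlapped a peak of both proteins.

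Peaks of a protein on its own scored low and, for HCF1, lay mostly close to shared sites. The 116 HCF1 peaks without BAP1 or OGT had a median width of 561.5 bp and a median percentile of 31.5, against 1477 bp and 86.6 for the 93 HCF1 peaks with both. A site with all 3 proteins lay within 5 kb of 72 of them, 62.1% (52.6 to 70.9%), where in the rest of the chromosome this held for 21.3% (18.0 to 24.9%). The median distance to such a site was 3.07 kb in the region and 30.0 kb in the rest, and the density of these sites, 28.8 against 2.98 per Mb, moves with it. HCF1 peaks with 1 other protein were similar, with 57.4% (44.8 to 69.3%) within 5 kb against 21.2% (17.5 to 25.3%). For lone BAP1 peaks the shares were 46.2% (19.2 to 74.9%) and 13.5% (8.99 to 19.1%). For lone OGT peaks they were 33.3% (7.49 to 70.1%) and 18.3% (9.52 to 30.4%). The highest lone HCF1 peak, chr17:34325753-34327232, scored 412.67 and lay 0.07 kb from a BAP1 peak and 0.043 kb from an OGT peak. The next, chr17:36033194-36035014, scored 358.14 with BAP1 at 11.2 kb and OGT at 11.5 kb.

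Lone BAP1 peaks were 13 of 125, 10.4% (5.65 to 17.1%), against 24.8% (21.8 to 28.0%) in the rest of the chromosome. The highest, chr17:34109217-34110301, scored 240.84, at the 81.2nd percentile, with HCF1 at 2.55 kb and OGT at 4.997 kb. The next scored 113.15. Lone OGT peaks were 9 of 130, 6.92% (3.21 to 12.7%), against 13.2% (10.2 to 16.7%). None of them scored above 83.66, the value of chr17:34944932-34945616, which lay 27.4 kb from BAP1 and 27.1 kb from HCF1.

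BAP1 and OGT without HCF1 met at 4 places. They were chr17:34289570-34290471, chr17:34484138-34485626, chr17:34817642-34818543 and chr17:35314938-35316215. Their BAP1 scores were 58.15, 52.7, 82.09 and 56.45, the highest at the 32.8th percentile of that list. Their OGT scores were 55.74, 141.99, 165.1 and 65.01. The site at chr17:34817642-34818543 had the highest OGT percentile of the 4, 79.5.

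The share of sites with all 3 proteins had overlapping intervals along the region. In 4 parts of equal length it was 21.6% (13.5 to 31.6%), 30.6% (19.6 to 43.7%), 30.4% (18.8 to 44.1%) and 37.0% (24.3 to 51.3%). OGT overlapped 37.8%, 41.7%, 47.4% and 43.1% of HCF1 peaks in the same order, and BAP1 44.4%, 54.2%, 52.6% and 50%. The part nearest the start had the most peaks, with 42 for BAP1, 90 for HCF1, and OGT at 37.

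Other windows dense in peaks resembled the region in part. On the same grid the next windows by number of merged regions were chr10:78100001-80700000, chr7:132700001-135300000 and chr19:5300001-7900000, with 207, 203 and 194. Sites with all 3 proteins made up 30.4%, 28.6% and 26.8% of them, close to the 28.8% of the H2 region. OGT overlapped 58.2%, 60.2% and 51.9% of their BAP1 peaks, against 66.4% in the region. Of these values 58.2% and 60.2% lie within the region's interval of 57.4 to 74.6%. It overlapped 42.4%, 41.2% and 32.1% of their HCF1 peaks, against 41.9% in the region. Over 539 autosomal windows with at least 20 merged regions, the share with all 3 proteins had a Spearman rho of 0.42 with the number of merged regions. For the share of HCF1 peaks on OGT the rho with the number of HCF1 peaks was 0.41 over 511 windows, and for BAP1 peaks on OGT it was 0.33 over 295. The remaining pairs had a rho of 0.21 for HCF1 on BAP1, 0.12 for BAP1 on HCF1, 0.088 for OGT on BAP1 and 0.0080 for OGT on HCF1. These correlations describe windows of the same 3 libraries, which share their peak lists.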

How the data were processed

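Peaks of 3 ChIP libraries, 1 per protein, were analysed. Each deposited peak carries a score, whose definition the sources used here do not state. The lowest scores were 50.01 for BAP1, 50 for HCF1 and 50 for OGT. GSNAP, MACS 1.4 and the build mm9 are named in the submitters' processing notes, without settings. Each list deposited by the authors belongs to 1 library, per the labels. Lists of different libraries depend on unknown depth, so scores were ranked within a list. Starts were read as counted from 0 and printed counted from 1. Peaks overlapped when they shared at least 1 bp, and peaks linked across lists formed a merged region. Touching peaks were not joined. Shares have exact Clopper-Pearson 95% intervals, densities exact Poisson ones, folds the matching binomial ones, medians order-statistic ones and differences of shares Newcombe ones. All cover counting error only, since there is 1 library per protein, and they treat peaks as independent. The PCR reads behind the peaks, without molecular identifiers, are not independent molecules either. Python 3.11.15, numpy 2.4.6, pandas 2.3.3 and scipy 1.17.1 were used, and the overlap code was tested on simulated data against direct enumeration.

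Sites were named by rule: the 10 sites with all 3 proteins whose lowest percentile was highest, the 3 highest peaks and the 3 highest lone peaks of each list (some given here only by their limit), every site of BAP1 with OGT, the widest site, the densest bins and the longest empty stretches. The region, lists and rules were chosen with earlier results of these data known. Gene lists were not tied to peaks, because no mm9 annotation was used here. Alternatives were other overlap rules, a score of at least 100, equal list lengths, no peaks over 5000 bp, other edges, stitched peaks and other references.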

Additional observations from a re-analysis of the deposited data

How the results depend on the processing

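Of 141 values under alternatives, 87 stayed within the counting interval, or for counts within 1.5 times, 50 moved, and 4 turned a difference from the rest of chromosome 17 whose interval had excluded 0. Apart from these 4, another 11 values changed the sign of a difference whose interval had included 0, namely OGT on HCF1 and OGT on BAP1 by centres and with trimmed peaks, and HCF1 on BAP1 in the other 7. Listed as BAP1 on HCF1, OGT on HCF1, OGT on BAP1, HCF1 on BAP1, HCF1 on OGT and last BAP1 on OGT, the shares were 44.0%, 45.4%, 30.8%, 19.9%, 21.3% and 32.0% by centres within 250 bp, and 60.8%, 60.8%, 45.4%, 27.4%, 28.5% and 47.2% by reciprocal overlap of 50%. Trimmed to 200 bp, the peaks gave 39.2%, 39.2%, 24.6%, 17.7%, 18.4% and 25.6%. The 4 turns were those of BAP1 on HCF1 and the share of sites with all 3 proteins, each by centres and with trimmed peaks. These sites numbered 29 (7.30%) by centres, 21 (5.08%) with trimmed peaks, 49 with a score of at least 100, and made up 14.8% by reciprocal overlap. The contrast of OGT on HCF1 peaks with and without BAP1 was 25.6 points by centres and 22.3 points with trimmed peaks. With lists of equal length the last 5 shares were 73.1%, 61.5%, 66.4%, 78.5% and 77.8%, the share with all 3 proteins 39.4%, the contrast 22.03 points, and the densities of BAP1 and HCF1 31.2 and 41.2 per Mb. With a score of at least 100, OGT on BAP1 was 67.1%, densities were 29.6, 56.9 and 31.5 per Mb for BAP1, HCF1 and OGT, median widths 1753, 1338.5 and 1478.5 bp, and the HCF1 median percentile 61.3. The OGT fold was then 15.1. Stitching over 1 kb, chosen after seeing the data for the shares, gave 57.2% for HCF1 on BAP1, 49.3% for HCF1 on OGT, 37.4% with all 3 proteins, a contrast of 62.0 points, and 58.5 HCF1 and 39.6 OGT stretches per Mb. Folds were 2.40, 3.18 and 4.27 over bins with a peak, and 6.74 for BAP1 and 8.39 for HCF1 against other autosomes. Stricter overlap rules meet fewer peaks by construction, and otherwise the cause was not tested. Leaving out peaks over 5000 bp and narrowing the region moved none of the results run under them beyond these limits. Asking for peaks wholly inside the region kept the same 125 BAP1, 277 HCF1 and 130 OGT peaks, so it could move nothing. Its values are among the 87 that stayed. The alternatives for BAP1 on OGT were chosen after its value was seen. Depth is unknown, and a site without a peak may still be occupied. No paired analysis was possible because there is 1 library per protein.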
